A study of Homo sapiens with 8 samples.

Results

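On chromosome 18, 720 of the 1339 regions listed for eIF4G2-overexpressing cells lay within gene bodies (53.8%, 95% Wilson interval 51.1 to 56.4). Here this means that the midpoint lay before the last 10% of the longest transcript under the region. These 720 regions made up 36.3% of the 1986 regions of the overexpression table and were spread over 139 genes. The control table held 1224 regions and 0 on chromosome 18, so no member has a counterpart there. Chromosome 18 held 1339 of the 1986 regions of the overexpression table, so the tables differ in the chromosomes they list. What lies behind this difference was not tested, and it cannot be read as an effect of overexpression. Each member was chosen by position alone: the region overlapped transcripts of 1 strand, the longest of them was at least 5000 bp long, and the midpoint of the region lay in its first 90%, counted from the 5′ end. Of the other 619 regions of the chromosome, 303 had their midpoint past that limit, 193 lay over genes of both strands, 97 overlapped no transcript, 15 lay in shorter transcripts and 11 had a midpoint before the transcript began.

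The regions come from RIP-seq, in which an antibody against eIF4G2 pulls the protein down with the RNA it holds and that RNA is sequenced. All libraries came from IHCF cells, a line of human cardiac fibroblasts that was made immortal, grown in DMEM with fetal bovine serum, non-essential amino acids and insulin. The cells carried either a lentiviral vector that overexpresses eIF4G2 or a scramble control vector, and the control cells keep their own eIF4G2. Total RNA and bound RNA were sequenced from each in 2 biological replicates, 4 groups and 8 libraries in all. The authors deposited 1 table of regions per condition, and only the names of these tables tell which condition each belongs to; the names also carry MOV10, an RNA helicase that no sample label mentions. Neither table holds a read count, a score or a value per replicate, so depth is unknown, no comparison below has a replicate check, and the intervals cover counting error only and treat neighbouring regions as independent. The labelled cell type could not be checked, since the tables give no expression level.

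eIF4G2 (also DAP5) is a translation initiation factor related to eIF4G1. It binds eIF4A and eIF3 but lacks the part of eIF4G1 that holds the cap-binding protein, and it is known for starting translation on selected mRNAs without that protein. Cardiac fibroblasts make the matrix of the heart, and on activation they become contractile, matrix-secreting myofibroblasts. A mature mRNA keeps only the exons of its gene, so a region listed inside a gene body may lie over an exon or over an intron. The tables give the ends of each transcript and not its exons, and exon structure was not used here.

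Regions over the start of a transcript show most directly what a position along the longest transcript does and does not say. Of the 720 members, 13 touched the window from 250 bp before to 50 bp after a RefSeq start of their own gene. The 5 windows with the most bases before the start under a member are printed below, because in 3 of them the member lay far along the longest transcript and at the start of a shorter one. TXNL4A encodes a protein of the U5 spliceosomal particle, TCF4 a helix-loop-helix transcription factor and TGIF1 a homeodomain repressor of TGF-beta responses; their members lay at 74.3%, 77.0% and 80.7% of the longest transcript. RMP24 (C18orf21 in the authors' deposited table) and CDH2, which encodes N-cadherin, had theirs at 0.345% and 0.258%. The sequences are the 250 bases before the start, 5′ to 3′ on the strand of the gene, from RefSeq on GRCh38.p14. Capitals mark the bases under the member region, and lower case the rest.
TXNL4A, chr18:79988564-79988813, minus strand, 250 of 250 bases under the member: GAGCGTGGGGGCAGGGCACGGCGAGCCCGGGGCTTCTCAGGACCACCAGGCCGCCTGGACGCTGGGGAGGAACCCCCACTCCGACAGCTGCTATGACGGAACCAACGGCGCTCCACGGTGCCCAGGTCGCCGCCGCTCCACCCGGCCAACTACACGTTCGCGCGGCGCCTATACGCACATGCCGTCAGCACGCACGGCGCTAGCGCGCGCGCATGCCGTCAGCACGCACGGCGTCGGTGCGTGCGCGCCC
TCF4, chr18:55321842-55322091, minus strand, 215 of 250 bases under the member: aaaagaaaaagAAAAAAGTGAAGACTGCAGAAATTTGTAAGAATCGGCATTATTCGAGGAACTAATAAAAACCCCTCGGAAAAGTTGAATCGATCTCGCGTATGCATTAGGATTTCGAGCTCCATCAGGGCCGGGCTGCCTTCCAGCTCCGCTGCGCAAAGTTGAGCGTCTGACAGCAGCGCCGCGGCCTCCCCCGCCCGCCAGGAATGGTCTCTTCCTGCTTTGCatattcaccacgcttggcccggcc
TGIF1, chr18:3449318-3449567, plus strand, 205 of 250 bases under the member: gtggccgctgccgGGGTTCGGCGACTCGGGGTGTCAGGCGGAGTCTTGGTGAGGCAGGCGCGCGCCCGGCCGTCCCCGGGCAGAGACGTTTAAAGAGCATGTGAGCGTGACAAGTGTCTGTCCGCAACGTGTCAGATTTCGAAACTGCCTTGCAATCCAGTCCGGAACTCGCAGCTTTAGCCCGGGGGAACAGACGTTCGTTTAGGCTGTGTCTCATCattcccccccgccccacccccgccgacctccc
RMP24, chr18:35972429-35972678, plus strand, 168 of 250 bases under the member: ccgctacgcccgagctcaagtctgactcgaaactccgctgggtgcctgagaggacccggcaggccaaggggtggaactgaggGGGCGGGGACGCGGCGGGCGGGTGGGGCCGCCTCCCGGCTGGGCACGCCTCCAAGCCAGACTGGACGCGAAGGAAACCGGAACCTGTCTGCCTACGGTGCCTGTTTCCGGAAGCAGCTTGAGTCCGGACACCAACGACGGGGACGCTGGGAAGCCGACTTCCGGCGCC
CDH2, chr18:28177131-28177380, minus strand, 125 of 250 bases under the member: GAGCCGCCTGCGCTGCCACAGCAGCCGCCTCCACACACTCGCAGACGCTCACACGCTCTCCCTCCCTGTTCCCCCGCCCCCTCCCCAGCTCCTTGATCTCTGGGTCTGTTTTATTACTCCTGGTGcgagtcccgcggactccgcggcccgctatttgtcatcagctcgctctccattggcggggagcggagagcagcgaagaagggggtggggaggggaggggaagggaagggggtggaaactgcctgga

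Over all promoter windows that a member touched, 21 windows of 18 genes, the median GC content of the 250 bases was 72.0%, with a range of 45.6 to 83.6%. The median was 52.0% over all 721 RefSeq windows of chromosome 18 and 62.4% over the 365 windows of coding genes, against 72.0% in the 17 touched windows of coding genes. The motif GGGCGG, searched on both strands and known as the GC box, was present in 14 of the 21 windows, and in 35.1% of all windows of chromosome 18. Among windows of coding genes it was present in 12 of the 17 touched (70.6%) and in 52.1% of all. These values describe whole windows and not the bases under members. In the windows of TIMM21 and KDSR-DT and in a window of MYL12B, 0 of the 250 bases lay under a member. In 15 of the 21 windows the member lay over the gene of the window. The values describe sequence and say nothing on which factor, if any, binds there. None of the 31 RefSeq microRNA hairpins of chromosome 18 lay under a member (0 of 31).

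Most members were narrow. The median width was 215 bp, the lower and upper quartiles 215 and 430 bp, and the range 205 to 3940 bp. Widths fell on a grid: 178 members were exactly 205 bp wide and 201 exactly 215 bp, so that 379 of 720 (52.6%, 49.0 to 56.3) were 1 grid step wide. Every member began 1 base after a multiple of 205 or 215 and ended on a multiple of 205 or 215. Both ends lay on the 205 bp grid in 262 members and on the 215 bp grid in 282, and 176 members had mixed ends, with a median width of 370 bp. Only 55 members (7.64%) were at least 1000 bp wide and 9 at least 2000 bp.

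Neighbouring members of a gene mostly lay close together, as did regions of the other sets. Between neighbouring members the median gap was 430 bp (quartiles 205 and 1655 bp), and 411 of 581 gaps (70.7%, 66.9 to 74.3) were no longer than 1000 bp. By the same rule such gaps were 74.8% of 115 on chromosome 4 and 92.6% of 27 on chromosome 10 in the overexpression table. They were 67.8% of 376 on chromosome 4 in the control table and 82.1% of 195 past the 90% limit on chromosome 18. Among the members of at least 400 bp alone, the median gap was 1720 bp and 36.4% of 154 gaps were that short. On chromosome 4 the share at that width was 74.8% in the overexpression table and 50.8% of 240 in the control table. Joined at up to 1000 bp, the 720 members formed 309 clusters, of which 90 held a single member and 21 held 5 or more. Where a member and its nearest neighbour in the gene each lay on 1 grid, the neighbour lay on the other grid in 286 of 420 cases (68.1%, 63.5 to 72.4). Members nearest to each other entered 2 times, so the interval is too narrow. Regions of 1 grid stand whole steps apart, whereas regions of different grids lay as close as 5 bp. The measure therefore leans to the other grid by the way it is made. In 9 of the 25 genes with exactly 2 members, among them the formin gene FHOD3, the ion channel gene PIEZO2 and the flippase gene ATP9B, the pair consisted of 1 region of 205 bp and 1 of 215 bp, with 200 to 925 bp between them. In the sources used here neither the region caller nor its treatment of replicates is stated, and what the 2 grids stand for was not tested.

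**Figure D1:**
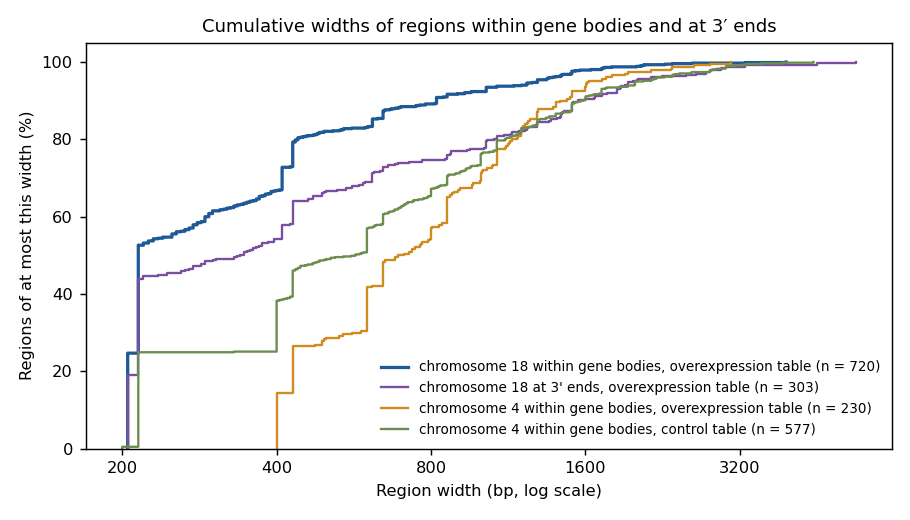
Cumulative share of regions (vertical axis, percent) up to a given width (horizontal axis, bp, log scale) for 4 sets of regions, 1 line each. The line of the 720 chromosome 18 members (blue) has reached 66.7% where the line of the chromosome 4 gene bodies of the same table (orange) begins, at 400 bp.

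The narrow widths set the members beside other regions of the same table as follows. On chromosome 4, where the overexpression table had 230 regions within gene bodies by the same rule, the narrowest was 400 bp and the median 700 bp. On chromosome 18, 480 of 720 members (66.7%, 63.1 to 70.0) were under 400 bp. Gene bodies of chromosome 10 in that table (52 regions) had 13 under 400 bp, and those of chromosome 4 in the control table (577 regions) had 145 (25.1%, 21.8 to 28.8). The 303 regions in the last part of chromosome 18 transcripts had a median of 340 bp and 54.1% under 400 bp. The lower limit of width thus differed between chromosomes within 1 table. Values below are for all widths unless a width is given.

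Along the transcript, members were more frequent in the first 10% and past 60% than between. The first 10% held 97 members (13.5%), each of the next 5 steps of 10% between 51 and 66, and the steps from 60, 70 and 80% held 91, 97 and 125 (17.4% in the last). The rule itself sets the end of this scale at 90%. It also leaves out regions over genes of both strands, so a stretch without members can still hold regions. The median position was 53.6%. Gene bodies of chromosome 4 had 16.1% of 230 regions in the first 10% and 15.7% from 80 to 90% in the overexpression table, and 17.0% and 15.4% of 577 regions in the control table. No test of these differences was made, since regions are not replicates of a condition.

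**Figure D2:**
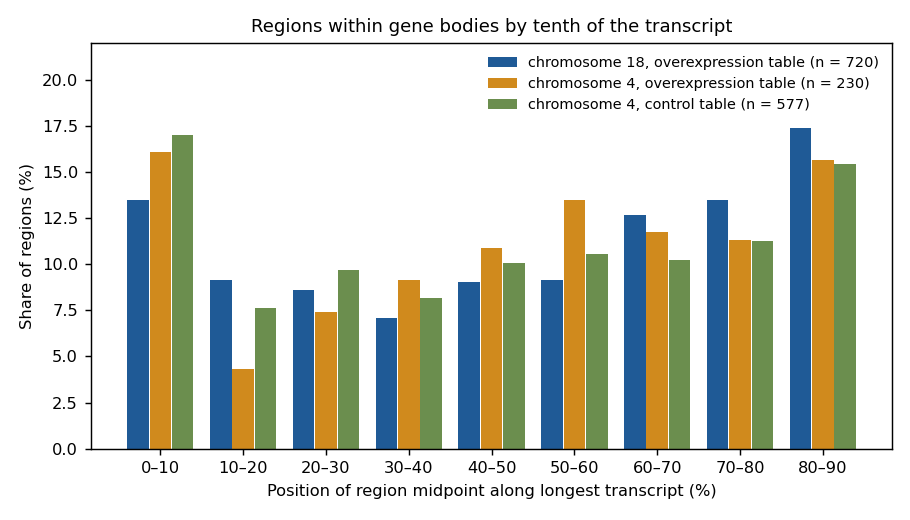
Share of regions (vertical axis, percent of each set) in steps of 10% along the longest transcript, 5′ to 3′ (horizontal axis), for chromosome 18 members and for chromosome 4 gene bodies of both tables. All 3 sets are high in the first step and in the step from 80 to 90%; for chromosome 18 these bars stand at 13.5% and 17.4%.

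A position in the body of the longest transcript was often another position in a shorter one. Of the 720 members, 59 (8.19%) lay over the start and 92 (12.8%) over the end of some listed transcript, and 7 contained a whole transcript. A further measure is that 204 members (28.3%, 25.2 to 31.7) had their midpoint past 90% of at least 1 other listed transcript. Another count, inside every transcript listed for the region, held for 578 members (80.3%) and overlaps with the 204. For 66 members a single transcript was listed. Of all members, 654 lay over 1 gene and 66 over 2 or more genes of the same strand.

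Of the 139 genes, 127 matched a RefSeq record: 114 protein-coding genes with 607 members, 12 long noncoding RNAs with 43, and the zinc finger pseudogene ZNF271P with 8. The other 12, with 62 members, have no name in the table. The median gene had 4 members, 19 genes had 1, and 19 genes had 10 or more, which together held 270 of the 720. The number of members per gene hardly followed transcript length (Spearman rho 0.07 across 139 genes, which are not independent replicates). The covered share of the transcript fell with length (rho -0.73). Length is the divisor of that share, so the measure leans to a fall by the way it is made. Among RefSeq protein-coding genes of chromosome 18, 124 of 270 had a member inside or overlapping them (45.9%). That share was 1 of 20 for genes under 5 kb (5.00%), which the minimum of 5000 bp for the transcript keeps low, 19 of 36 for genes of 5 to 20 kb (52.8%), 41 of 76 for 20 to 50 kb (53.9%) and 18 of 41 for 200 kb or more (43.9%). Genes with a member had a median length of 51.2 kb and those without 51.6 kb.

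**Figure D3:**
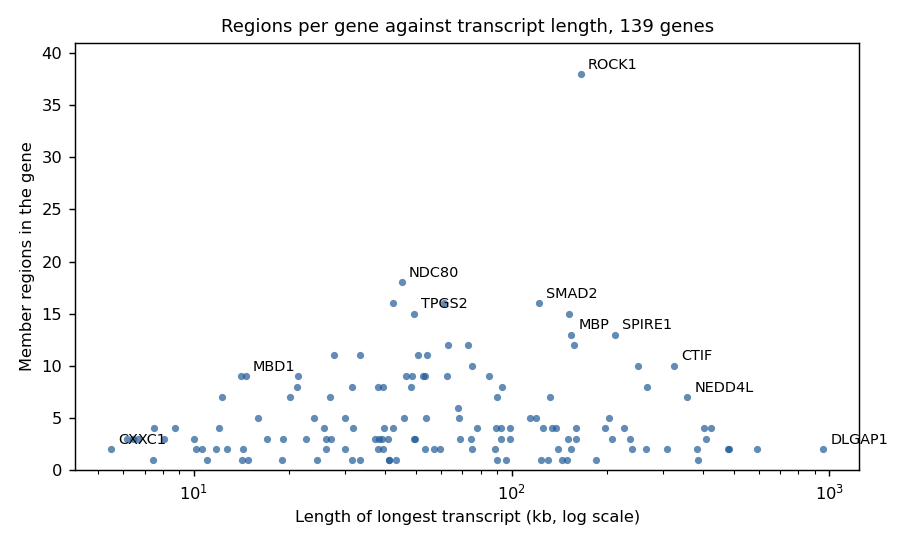
Number of member regions (vertical axis) against the length of the longest transcript (horizontal axis, kb, log scale), 1 point for each of the 139 genes. ROCK1 stands at 38 members and 165 kb, while DLGAP1, at 959 kb the longest, has 2.

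The 12 genes with the most members held 196 of them. In these genes 119 of 196 (60.7%, 53.7 to 67.3) lay past the middle of the transcript, and in the other 127 genes 260 of 524 (49.6%, 45.4 to 53.9). The genes were picked by their counts, so this is a description. Median positions differed widely between genes: among the 35 genes with at least 8 members they ran from 6.24% in MOCOS, which encodes the sulfurase of the molybdenum cofactor, to 76.9% in RBBP8, a DNA end resection factor.

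**Figure D4:**
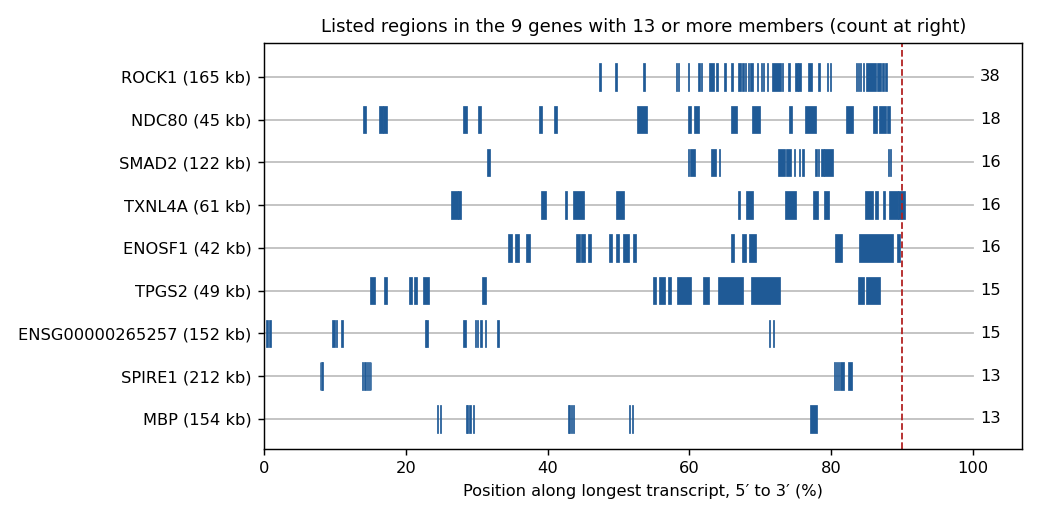
Members (blue bars, drawn to width) along the longest transcript of the 9 genes with 13 or more members, as percent of the transcript from 5′ to 3′, with the transcript length beside the name and the count at the right. The dashed line marks the 90% limit; by midpoint, ROCK1 has no bar before 47.4%, and MBP none after 77.5%.

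Among genes of the cytoskeleton and of contraction, ROCK1 had the most members of any gene. ROCK1, a kinase that drives actomyosin contraction, had 38 members in a transcript of 165 kb, from 47.4 to 87.8% of it, and none in its first 78.0 kb. Of these, 25 were at least 400 bp wide, and 8 stood in 1 cluster of 7380 bp at chr18:20966786-20974165. TPGS2, a subunit of the tubulin polyglutamylase complex, had 15 members (9155 bp in all, 18.6% of the transcript), 7 of them in a cluster of 8815 bp. SPIRE1, which nucleates actin filaments, had 13 in its 212 kb transcript. They lay in 2 stretches with none between: 8 from 7.89 to 15.1% and 5 from 80.5 to 82.7%.

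The tubulin and myosin genes differed in how much of the transcript lay under members. TUBB6, a beta-tubulin, had 11 members, 9 of them in the first 25% of the transcript, and its widest, at chr18:12323986-12327265 (3280 bp), lay at 43.9%. That widest region was not inside every transcript listed for it. The 8 members placed in the 33.4 kb transcript of TUBB6 covered 23.6% of it, and the other 3 lay in one of 29.0 kb. The later part of the 33.4 kb transcript overlaps AFG3L2 on the other strand, where the rule admits no member. For TUBB6, PIGN and SEH1L, 3 of the 139 genes, the longest transcript was not the same under all members, so each position refers to the one under that member. MYL12A and MYL12B, the neighbouring genes of the regulatory light chains of nonmuscle myosin, had 4 and 3 members. In MYL12A these covered 46.6% of an 8.75 kb transcript, with the widest, 2580 bp, at 18.3%, whereas the 3 in MYL12B were 215, 290 and 240 bp wide and covered 4.39% of 17.0 kb. Of the 16 coding genes of the cytoskeleton list on chromosome 18, 7 had a member, against 45.9% of all coding genes there; 1 of the 7, AFG3L2 (8 members), encodes a mitochondrial protease.

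In TGF-beta signalling, SMAD2, which carries the signal to the nucleus, and TGIF1 had members, and they were 2 of the 7 genes of that list on the chromosome (28.6%, 8.22 to 64.1, against 45.9%). SMAD2 had 16, with a median position of 75.2% and none past 88.4%, and no region counted in the last 10%. Regions over genes of both strands were left out of that count, so the 3′ end may still hold regions. The 9 of TGIF1 all lay between 69.2 and 82.6% of its longest transcript, and 7 were 1 grid step wide. SMAD4, SMAD7, LDLRAD4, SKOR2 and GREB1L had no member. Of these, SMAD4 and SMAD7 each had 3 regions in the last 10%, and LDLRAD4, SKOR2 and GREB1L had 0 there by the same count.

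On the list of RNA binding, translation and ribosome genes, 16 of 23 coding genes had a member (69.6%, 49.1 to 84.4, against 45.9%), with a median of 4 members a gene against 0 over all 270 coding genes. The members of this list and of the others were chosen with results of these data known, so the share does not set the list apart. TXNL4A had 16 members (8220 bp), 11 of at least 400 bp, spread from 26.9 to 89.9%. SNRPD1, a core protein of the spliceosomal particles, had 9, from 0.0778 to 83.0%, which covered 21.3% of its 21.2 kb transcript. THOC1, of the complex that couples transcription to mRNA export, had 9 between 61.3 and 79.7%, 8 of them 1 step wide. CTIF, which works with the nuclear cap-binding complex in translation, had 10 in the first 33.4% of a 324 kb transcript. NARS1, the asparaginyl-tRNA synthetase, had 8 (14.1% of the transcript). RIOK3, a kinase of ribosome maturation, had 5 and SEH1L, a nucleoporin, 4. Several of the 16 do not do what the list's name says. SLC66A2, a membrane transporter, had 3 members and TXNL1, a thioredoxin-like protein, had 9. Others act mainly on DNA: MBD1 and MBD2, readers of methylated CpG, had 9 and 12 members, RBBP8 had 8, the polymerase POLI 3 and CXXC1 2. All 9 of MBD1 formed 1 cluster of 7795 bp, the cluster with the most members. CXXC1, a reader of unmethylated CpG, held the widest member of all, chr18:50282196-50286135 (3940 bp). It lay over the shortest transcript that had any member (5.475 kb). Its midpoint stood at 67.1% of that transcript, but the region ran past the 3′ end. ELP2, a subunit of the Elongator complex that modifies tRNA, is on no list and had 11.

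On the list of cell cycle, mitosis and genome maintenance genes, 12 of 17 coding genes had a member (70.6%, 46.9 to 86.7, against 45.9%). Several of the 12 are not cell cycle genes, so the share is that of the list and not of a class. NDC80, a kinetochore protein that binds microtubules, had 18, second after ROCK1. They were narrow (median 215 bp, 11 of them 1 step wide) and spread from 14.2 to 88.1% of a 45.1 kb transcript, in 9 clusters. TYMS, thymidylate synthase, had 5 and its neighbour on the other strand, ENOSF1, had 16. ENOSF1 began to carry members at 34.7%, and its widest, 2015 bp, lay at 86.3%. HAUS1, of the augmin complex of the spindle, had 5, CEP192, a centrosome scaffold, 4 and SKA1, a kinetochore protein, 3. The genes that do not match the list's name include ENOSF1, the adhesion gene CDH2 with 4 members, CABYR with 3 and PARD6G with 1.

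Genes of membranes, lipids and secretion were 11 of 18 (61.1%, 38.6 to 79.7, against 45.9%). ATP8B1, a phospholipid flippase, had 12 members in the first 40.9% of its 157 kb transcript and none after that. Nearly all of the transcript past that point overlaps the unnamed gene ENSG00000267787 on the other strand, where the rule admits no member. PIGN, of the synthesis of GPI anchors, had 10: 8 lay between 41.2 and 44.3% of a 249 kb transcript, and the other 2 in the first 0.545% of one of 146 kb. LMAN1, the receptor that carries glycoproteins from the endoplasmic reticulum to the Golgi, had 8 from 0.754 to 89.9%. NAPG, a SNARE-disassembly adaptor, had 7, VAPA, of endoplasmic reticulum contact sites, 5, and OSBPL1A, a sterol-binding protein, 3 within 14.2 to 14.6% of a 236 kb transcript. KDSR, an enzyme of sphingolipid synthesis outside the lists, had 8 members, all of 205 or 215 bp. ME2, the mitochondrial malic enzyme, also outside the lists, had 10.

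On the list of matrix and secreted proteins 6 of 11 coding genes had a member (54.5%, 28.0 to 78.7, against 45.9%). Not all 6 match its name: THOC1 is not a matrix gene, SERPINB8 encodes an intracellular serpin and COLEC12 a membrane receptor. CCBE1, a secreted factor of lymphatic growth, had 8, all under 300 bp wide and between 31.8 and 64.3% of the transcript. The elastic fibre protein gene EMILIN2 and the serpin gene SERPINB8 had 3 each, the laminin chain gene LAMA3 2 and the collectin gene COLEC12 1. LAMA1 had none. In cell adhesion the share was 2 of 13 (15.4%, 4.33 to 42.2): CDH2, with 4 members in the first 4.25% of its transcript, and the desmocollin gene DSC3, with 2 in the first 2.32%.

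Ubiquitin and SUMO enzymes were at 6 of 13 (46.2%, 23.2 to 70.9) and transcription and chromatin genes at 14 of 32 (43.8%, 28.2 to 60.7), beside the 45.9% of all coding genes. The 6 include ANKRD12, an ankyrin repeat cofactor of transcription that is not a ubiquitin or SUMO enzyme. NEDD4L, a ubiquitin ligase, had 7 members, 5 of them in the first 1% of a 357 kb transcript, and the SUMO ligase gene PIAS2 had 5, 3 of which lay past 86%. MIB1, the ligase that activates Notch ligands, had 4. The 11 members over ANKRD12 lay nearly all, 10 of them, under the longer transcript of an unnamed gene, ENSG00000265257, that also runs over NDUFV2, a subunit of respiratory complex I; that transcript had 15 members. ZNF24, a zinc finger repressor, had 7 members in 1 cluster of 4515 bp, 23.0% of its transcript. TCF4 had 3 members, 1 at 11.5% and the others at 76.8 and 77.0%. INO80C, of a chromatin remodeller, had 11, all under the transcript of the unnamed gene ENSG00000267140.

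Of 23 coding genes known as markers of cell types other than fibroblasts, 5 had a member (21.7%, 9.66 to 41.9, against 45.9%). MBP, named for myelin, had 13 from 24.5 to 77.5% of its longest transcript. No region was counted in its last 10%, where regions over genes of both strands were left out. The G protein gene GNAL and the sialyltransferase gene ST8SIA5 had 4 each, PIEZO2 2 and DSC3 2. The keratinocyte genes DSG1 and DSG3, the hepatocyte gene TTR and the glial gene AQP4 had none. Whether RNA of other cells contributed was not tested.

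Of the 139 genes with a member, 78 (56.1%, 47.8 to 64.1) also had a region in the last 10%, out of 108 genes with such a region in all, and 61 genes, with 276 members, had none. Among RefSeq coding genes, 75 of the 124 under a member (60.5%, 51.7 to 68.6) and 27 of the 146 others (18.5%, 13.0 to 25.6) had a region in the last 10%, against 102 of 270 in all (37.8%). Both kinds of region come from 1 table and can lie in 1 transcript, and the difference was not tested. ROCK1 had 2 there and NDC80 6, whereas SMAD2, ENOSF1, MBP, ATP8B1, TUBB6 and PIGN had 0. Regions over genes of both strands were left out before the division, so 0 does not mean that the 3′ end of these genes lacked regions. Just inside the 90% limit stood members of NAPG (89.7%), LMAN1 (89.9%) and TXNL4A (89.9%), and just outside it regions of ZNF516 (90.01%), COLEC12 (90.03%) and ATP9B (90.1%).

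Noncoding and unnamed genes held the rest of the members. ZNF271P had 8, from 0.280 to 65.2%, with a widest of 2085 bp. ZNF236-DT, a divergent transcript of the zinc finger gene ZNF236, had 11, and LINC00667 had 9, all in the first 15.6% of its longest transcript (52.5 kb). Each of the 9 had 19 to 40 transcripts of LINC00667 listed under it, in which its position can differ. In ZNF407-AS1, an antisense RNA, 4 members covered 47.6% of a 7.52 kb transcript. The authors' deposited table gives regions no strand, so a region under an antisense or divergent RNA was placed by the annotated strand of the transcripts alone. Of the 12 unnamed genes, ENSG00000267699 had 7 members in 1 cluster, 2 of the members over ELAC1, and ENSG00000267127 had 9, of which 5 lay over RBFA, a ribosome-binding factor. A region whose midpoint lay before the transcript began was no member; the 11 such regions included 2 of TUBB6 (3430 and 645 bp) and 1 each of CDH2, MYL12A and MIB1.

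Across chromosomes, 45.9% of coding genes on chromosome 18 had a region within the body in the overexpression table. On chromosome 4 the shares were 99 of 770 (12.9%) in that table and 177 of 770 (23.0%) in the control table. Counting only regions of at least 400 bp, they were 28.1% on chromosome 18 (76 of 270), 12.9% on chromosome 4 in the overexpression table and 21.9% there in the control table. At that width chromosome 18 had 240 regions in 86 genes, with a median of 610 bp, and ROCK1 alone had 25 of them. The most in a gene of chromosome 4 were 7 in the overexpression table and 13 in the control table, both in ANKRD17, an ankyrin repeat gene. Chromosome 18 in the overexpression table and chromosome 4 in the control table differ in both chromosome and condition, which cannot be told apart there. Chromosome 18 has no region in the control table, and none of the differences was tested.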

How the data were processed

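RNA bound by eIF4G2 was sequenced from IHCF cells; reads were trimmed with Trimmomatic 0.36 and aligned with HISAT2 2.1.0 to GRCh38, per the submitters' processing notes. Which caller and threshold made the regions, whether total RNA served as background and how replicates were joined is not stated in the sources used here. The deposited tables list regions by 1-based ends and width in bp, without normalization, repeated for each Ensembl transcript, per the file headers. With no value per sample, no test between groups was made. A region belonged to the gene of its longest transcript (ties by identifier); for shares of RefSeq genes (GRCh38.p14, matched by symbol or older symbol) and for gene lists, to every gene it overlapped by at least 1 bp. The rule was tested on simulated data. Named were the 12 genes with the most members (1 is not reported here), the widest members, the genes of each list with the most members (up to 4), those at the 90% limit and those whose sequence is printed; further genes were chosen after their values were seen. Members and lists were chosen with earlier results of these data known. Python 3.11.15, pandas 2.3.3, scipy 1.17.1 and matplotlib 3.10.9 were used.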

Additional observations from a re-analysis of the deposited data

How the results depend on the processing

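The selection was repeated under 12 other settings for 7 results, 1 setting (midpoints before the transcript start counted) added after the data were seen. Of 84 values 69 stayed within the interval of the reported value, or within 1.5 times a reported count. With members of at least 400 bp, 240 remained in 86 genes, the median width was 610 bp and the share of coding genes 28.1%. Joined up to 1000 bp apart, members numbered 309, with a median span of 1130 bp. With transcripts of at least 20000 bp the share of coding genes was 39.3%. The other 8 values that moved concerned gaps (1720 bp at 400 bp or more, against 430 bp), positions and the share in the 10 genes with the most members. Exon overlap and GC content of members were not run, since no genome or exon annotation was used. No paired analysis was possible because the tables hold no values per replicate, and for the same reason no replicate could be left out. Depth is unknown.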
